A study of Mus musculus with 2 samples.

Results

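De novo lipogenesis, the making of fatty acids from carbohydrate carbon, was examined in perigonadal white adipose tissue (WAT) through 10 genes that encode its enzymes, its citrate carrier, its transcription factors and their cofactors. The 10 genes were chosen by their symbols. They were *Acly*, *Acaca*, *Acacb*, *Fasn*, *Me1*, *Slc25a1*, *Srebf1*, *Mlxipl*, *Thrsp* and *Mid1ip1*, of 18193 genes that probe sets with a single symbol name on the array. Their 20 probe sets were read on 2 Affymetrix Mouse Genome arrays. One array received WAT RNA of mice heterozygous for a human perilipin A transgene under the aP2 promoter/enhancer (PeriA Tg), and the other that of littermates without the transgene (WT). All mice were C57BL/6 females aged 30 weeks that had eaten a high-fat diet (HFD) for 25 weeks, and food had been removed on the evening before the tissue was taken. Each array carried 1 pool of RNA from 3 mice, so the spread between mice is unknown and the genotypes are compared by values alone, with no test. The promoter drives the transgene in brown fat as well as in WAT, per the methods of the study, and the transgene itself was not analysed here.

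In lipogenesis, citrate leaves the mitochondrion and is split in the cytosol to acetyl-CoA, which is carboxylated to malonyl-CoA and joined by fatty acid synthase, with NADPH as the reductant, into palmitate. The transcription factors SREBP-1, which answers to insulin and sterols, and ChREBP, which answers to glucose metabolites, turn the genes of these steps on together. In adipose tissue the pathway is known to be active after feeding and low during fasting and on fat-rich diets.

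The deposited signal is the brightness of a probe set on a linear scale, and the signal log ratio is log2 (Tg signal/WT signal). Probe sets whose brighter array reached 98.2, the median of all signals, were kept, and a gene was read from its brightest kept probe set. Of the 20 probe sets, 16 were kept, and each of the 10 genes had at least 1. The value of 0.3 on either side of 0 is the threshold of the study's methods. In the 5260 genes with at least 2 kept probe sets, the signal log ratios of one gene's probe sets had a pooled SD of 0.41, which is wider than this threshold and describes readings of the same RNA pools.

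The lipogenesis genes did not move as a group. Of the 10, *Acacb* (0.81), *Thrsp* (0.57) and *Acaca* (0.46) were over 0.3, *Slc25a1* (-0.67) and *Me1* (-0.38) were under -0.3, and the other 5, *Fasn* among them, lay between. Over all 11597 genes that passed the filter, 16.7% were over 0.3 and 17.0% were under -0.3. The median of the 10 genes was 0.16, against 0.02 over all genes. Of the 10, 8 were over 0, but the share of all genes over 0 was not computed, and their median was over 0 too. None of the 10 was past 1 or -1. By probe set, 5 of the 16 were over 0.3, of which a dim one of *Thrsp* was kept only through its Tg signal, and 3 were under -0.3, and the shares over all 23713 kept probe sets were 17.8% and 21.5%.

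**Figure D1:**
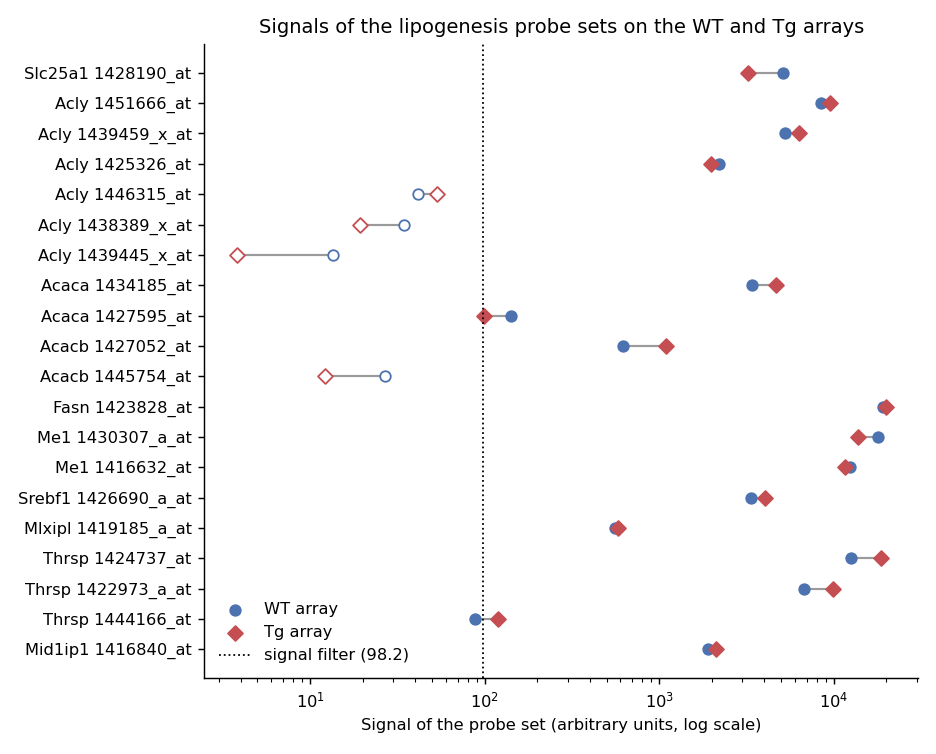
Signals of the 20 probe sets of the lipogenesis genes on the WT array (circles) and the Tg array (diamonds), on a log scale in arbitrary units, with 1 array of pooled RNA per genotype. Open symbols are the 4 probe sets below the signal filter of 98.2, drawn as a dotted line, and the widest gap among the filled pairs is that of *Acacb*, from 621.2 to 1088.

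Promoter windows are printed for 4 genes. These were *Acacb* with the highest signal log ratio of the 10, *Slc25a1* with the lowest, *Thrsp* with the next highest, and *Fasn*, which stayed near 0. Each line gives the 250 bases before the RefSeq start in build GRCm38.p6, 5′ to 3′ on the strand of the gene. Capitals mark 4 motifs searched on both strands: the CCAAT box (CCAAT), the GC box (GGGCGG), the E-box (CACGTG) and a sterol regulatory element (TCACNCCAC). A match on the opposite strand stands as its reverse complement, such as ATTGG for the CCAAT box. Windows of *Acacb* (chr5:114165268-114165517, plus strand), *Slc25a1* (chr16:17928220-17928469, minus strand), *Thrsp* (chr7:97417551-97417800, minus strand) and *Fasn* (chr11:120824548-120824797, minus strand) read as follows.
Acacb: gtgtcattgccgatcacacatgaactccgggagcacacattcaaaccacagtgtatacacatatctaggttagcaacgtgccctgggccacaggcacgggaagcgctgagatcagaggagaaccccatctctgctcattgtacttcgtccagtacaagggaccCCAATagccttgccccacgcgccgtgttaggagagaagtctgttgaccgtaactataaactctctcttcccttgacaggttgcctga
Slc25a1: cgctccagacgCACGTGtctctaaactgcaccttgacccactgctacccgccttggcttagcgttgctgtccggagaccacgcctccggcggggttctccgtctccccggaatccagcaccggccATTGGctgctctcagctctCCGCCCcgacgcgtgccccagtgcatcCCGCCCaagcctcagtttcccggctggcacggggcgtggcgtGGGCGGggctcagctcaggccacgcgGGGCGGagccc
Thrsp: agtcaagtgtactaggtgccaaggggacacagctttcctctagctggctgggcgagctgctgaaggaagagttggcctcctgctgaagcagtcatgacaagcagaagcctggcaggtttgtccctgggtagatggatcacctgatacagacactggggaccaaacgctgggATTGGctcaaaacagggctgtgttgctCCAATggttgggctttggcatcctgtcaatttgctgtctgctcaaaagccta
Fasn: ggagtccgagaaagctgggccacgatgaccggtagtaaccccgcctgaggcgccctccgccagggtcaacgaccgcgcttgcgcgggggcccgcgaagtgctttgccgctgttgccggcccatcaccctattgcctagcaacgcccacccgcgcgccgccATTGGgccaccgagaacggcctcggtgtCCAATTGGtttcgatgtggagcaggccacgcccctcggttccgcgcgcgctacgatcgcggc

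The *Fasn* window holds 3 CCAAT boxes, 2 of which overlap each other, and the *Thrsp* window holds 2. The *Slc25a1* window holds 1 CCAAT box, 4 GC boxes and 1 E-box, whereas the *Acacb* window holds 1 CCAAT box and none of the other motifs. All 10 genes matched the RefSeq promoter table, with 14 windows, since *Srebf1*, *Mlxipl* and *Me1* have several starts. A CCAAT box stood in 8 of the 14 windows and in 33.8% of all 32851 windows of this length, and a GC box in 7 and in 32.7%. The E-box stood in 2, one of *Mlxipl* and that of *Slc25a1*, and in 6.02% of all windows. The sterol regulatory element stood in 1, the other window of *Mlxipl*, and in 1.05%. These matches describe letters in a short window, and neither binding nor the starts used in this tissue were measured.

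The supply of cytosolic acetyl-CoA is described by the citrate carrier and ATP citrate lyase. *Slc25a1* encodes the carrier that exports citrate from the mitochondrion. Its single probe set (1428190_at) read 5094 in WT against 3211 in Tg (-0.67), so that the Tg array was 1.59-fold lower. Kept probe sets were ranked by mean signal into 10 equal bins, and within its bin 1.81% had a lower signal log ratio. *Acly* encodes the lyase that splits citrate, and 3 of its 6 probe sets were kept. The brightest (1451666_at) read 8402 in WT against 9461 in Tg (0.17). The next (1439459_x_at), whose suffix marks probes that may also bind similar transcripts, read 5279 in WT against 6368 in Tg (0.27). The third (1425326_at) read 2201 in WT against 1986 in Tg (-0.15), although it was designed from the same sequence record as the brightest. The 3 *Acly* probe sets below the filter had signals of at most 53.1 on either array. Carrier and lyase therefore lay on opposite sides of 0 on their brightest probe sets, and both *Acly* values over 0 stayed within the threshold.

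The acetyl-CoA carboxylases make malonyl-CoA, *Acaca* in the cytosol for synthesis and *Acacb* at the outer mitochondrial membrane, where malonyl-CoA restrains carnitine palmitoyltransferase and thereby the entry of fatty acids for oxidation. On the bright probe set of *Acaca* (1434185_at), WT gave 3407 against 4693 for Tg, a 1.38-fold difference. Within its brightness bin, 96.7% of probe sets had a lower signal log ratio. The dim probe set of *Acaca* (1427595_at) read 140.9 in WT against 98.7 in Tg (-0.51), and so pointed the other way. Its Tg signal lay at the filter. For *Acacb*, the brightest probe set (1427052_at) read 621.2 in WT against 1088 in Tg, a 1.75-fold difference that 99.2% of its brightness bin did not reach. The other *Acacb* probe set (1445754_at) read 26.9 in WT against 12.2 in Tg, far below the filter on both arrays. On their brightest probe sets both carboxylases were thus higher in Tg, with a signal log ratio of *Acacb* 0.35 above that of *Acaca*, a gap within the 0.41 by which readings of the same gene varied.

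Fatty acid synthase stands at the end of the pathway, and malic enzyme beside it as a source of NADPH. *Fasn*, the synthase, was among the brightest genes, with 19054 in WT against 19931 in Tg on its single probe set (1423828_at), or 0.06 as signal log ratio. This value lay near the middle of probe sets of like brightness, of which 51.9% had a lower one. *Me1* encodes the cytosolic malic enzyme, which supplies NADPH. Its brightest probe set (1430307_a_at), which reads several transcripts of the gene, read 17869 in WT against 13771 in Tg (-0.38). The other (1416632_at) read 12442 in WT against 11672 in Tg (-0.09). Both *Me1* values were under 0, and the brightest was the only one past the threshold. With the arrays centred on their medians, it was -0.29 and no longer past it.

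**Figure D2:**
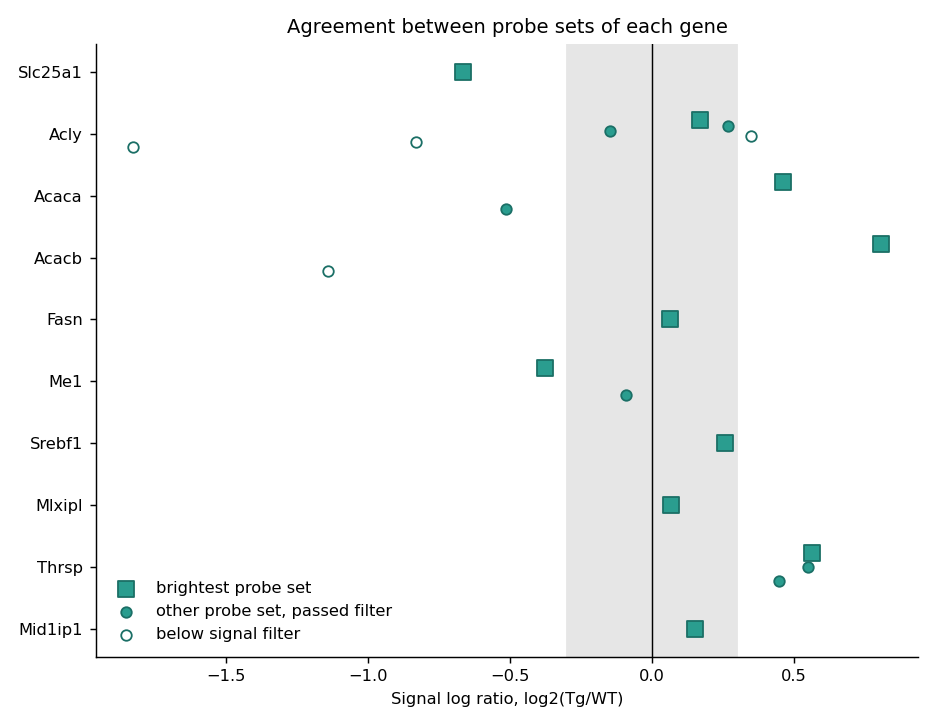
Signal log ratio, log2 (Tg/WT), of every probe set of the 10 lipogenesis genes, 1 row per gene. Squares are the brightest probe set of a gene, filled circles other probe sets that passed the filter, open circles those below it, and the grey band covers -0.3 to 0.3. The probe sets of *Thrsp*, the dimmest of which was kept only through its Tg signal, lie at the right, whereas those of *Acaca* lie on both sides of the band.

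The transcription factors of the pathway stayed within the threshold. *Srebf1*, the gene of SREBP-1, read 3376 in WT against 4042 in Tg on its single probe set (1426690_a_at). Its signal log ratio was 0.26, and 0.34 with the arrays centred on their medians, which is past the threshold. *Mlxipl*, the gene of ChREBP, read 555.4 in WT against 582.9 in Tg (1419185_a_at), or 0.07 as signal log ratio. Signals on an array report mRNA, and neither the cleavage of SREBP-1 nor the nuclear entry of ChREBP was measured.

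The Spot 14 family consists of *Thrsp*, known for its induction by thyroid hormone and feeding, and *Mid1ip1*, whose protein binds acetyl-CoA carboxylase and promotes its polymers. The brightest *Thrsp* probe set (1424737_at) read 12617 in WT against 18682 in Tg. The next (1422973_a_at) read 6759 in WT against 9893 in Tg. The third (1444166_at) was dim and read 87.6 in WT against 119.7 in Tg. This probe set was kept only through the Tg array, where it was higher, and its 0.45 is therefore no further reading in favour of a difference. In its brightness bin the SD of the signal log ratio was 0.97. The signal log ratios of the 2 bright probe sets were 0.57 and 0.55, or 1.48-fold and 1.46-fold. Of kept probe sets as bright as the brightest, 98.1% had a lower signal log ratio. *Mid1ip1* read 1915 in WT against 2130 in Tg on its single probe set (1416840_at), and its signal log ratio of 0.15 was 0.41 below that of *Thrsp*.

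Agreement between probe sets could be examined in the 4 genes with at least 2 kept ones. In *Me1* both probe sets lay under 0, with a range of 0.28. In *Thrsp* the 2 bright ones lay over 0, at 0.57 and 0.55, and the dim one cannot be counted as agreement, since it was kept only through the array where it was higher. In *Acaca* and *Acly* they lay on both sides of 0, with ranges of 0.98 and 0.42, so that 2 of 4 genes disagreed in sign. Over the 5260 genes with at least 2 kept probe sets, 51.4% disagreed in sign, and the median range was 0.40. In both genes that disagreed, the dimmest kept probe set had the lowest signal log ratio. A difference between the arrays stands beside this: in all 8 pairs of probe sets for bacterial poly-A controls, which are labelled with the sample, the 5' probe set had a lower signal log ratio than the 3' one, by a median of -0.55. These pairs read the transcripts dap, lys, phe and thr, with 2 pairs for each, so they are not independent of each other. In 8 pairs for hybridisation controls, added after labelling, the median was -0.005. They likewise hold 2 pairs for each of bioB, bioC, bioD and cre. In 3 pairs for mouse transcripts, which read the tissue RNA itself, all 3 differences were below 0, with a median of -0.25. Where the probe sets of *Acaca* and *Acly* lie along their transcripts was not analysed here, and the part of this difference in their values was not tested. The other 6 genes rest on a single kept probe set each.

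**Figure D3:**
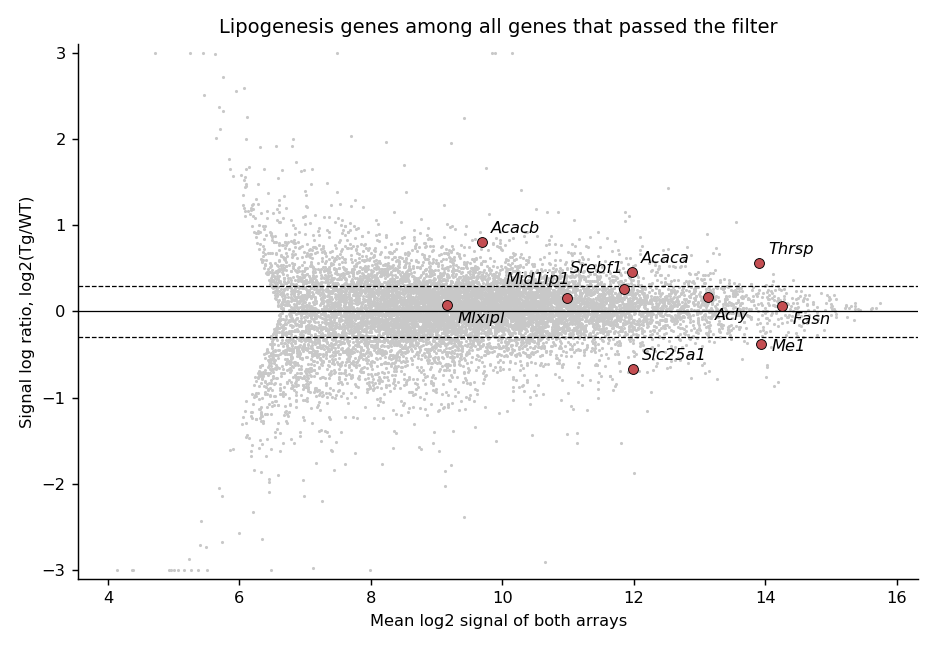
Signal log ratio, log2 (Tg/WT), plotted over mean log2 signal (average of the arrays), 1 point per gene for the 11597 genes that passed the filter, read from their brightest probe set. Lipogenesis genes are the named red points, dashed lines mark 0.3 and -0.3, and 20 genes beyond 3 or -3 are drawn at that edge. *Acacb*, *Thrsp* and *Slc25a1* lie at the rim of the cloud at their signal, and *Fasn* lies within it.

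Scaling set where some of these values fell against the threshold. Over 5 other ways to scale the arrays or treat low signals, none of the 16 kept probe sets changed sign, and 3 of them, those of *Srebf1*, *Me1* (1430307_a_at) and *Acly* (1439459_x_at), moved across 0.3 or -0.3. Each did so under median centring. That setting also shifted the balance over all genes, from 1936 over 0.3 and 1966 under -0.3 (49.6% over) to 2892 and 1513 (65.7% over), and the lipogenesis genes from 3 and 2 to 4 and 1. *Acacb* ranged from 0.78 to 0.89, *Thrsp* on its brightest probe set from 0.50 to 0.65, *Acaca* on its bright one from 0.44 to 0.55 and *Slc25a1* from -0.69 to -0.58.

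**Figure D4:**
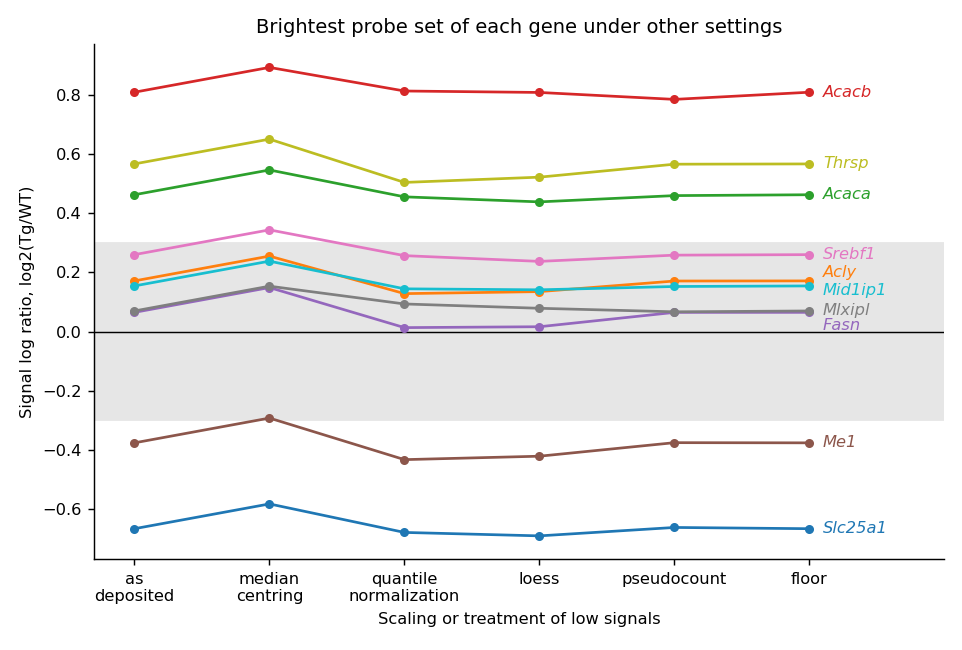
Signal log ratio, log2 (Tg/WT), of the brightest probe set of each of the 10 genes as deposited and under 5 other settings, joined by a line per gene to guide the eye. The grey band covers -0.3 to 0.3. Under median centring *Srebf1* rises above the band to 0.34 and *Me1* enters it at -0.29.

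Genes around the pathway were read from 6 lists. Of 9 genes of acetyl-CoA and citrate supply that passed the filter, of 10 listed, 3 were over 0.3 with none under -0.3, and the median was 0.15. *Pdha1* (0.37) and *Pdhb* (0.33), both of pyruvate dehydrogenase, and *Cs* (0.30), citrate synthase, were the 3 over it, and *Acss2*, which makes acetyl-CoA from acetate, had -0.06. *Aco1*, cytosolic aconitase, had 0.28. The other kept probe set of *Pdha1* had -0.32 and that of *Pdhb* had 0.07, and those of *Cs* reached down to 0.08. On brightest probe sets, the citrate carrier *Slc25a1* at -0.67 was below the 9, the lowest of which was *Pcx*, pyruvate carboxylase, at -0.23. Other kept probe sets of *Pcx* reached down to -1.80, below *Slc25a1*.

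Of 7 genes of cytosolic NADPH supply, of 8 listed, 1 was over 0.3 and 1 under -0.3, with a median of -0.07. Beside the malic enzyme value of -0.38 for *Me1* stood *Aldh1l1* (-0.37), a folate enzyme, *Taldo1* (-0.25), transaldolase, and *Tkt* (0.36), transketolase, whose kept probe sets ranged from -0.23 to 0.44. *Mthfd1*, another folate enzyme, had 0.27. *Pgls* of the pentose phosphate pathway had -0.04. Of 10 genes of chain elongation and desaturation, 1 was over 0.3, with a median of -0.01. This was the desaturase *Fads1* at 0.84, and its other kept probe set had -0.04. *Fads2*, another desaturase, had 0.01 on its brightest probe set and up to 0.67 on the others, and *Scd2* had -0.13 on its brightest and down to -2.47. *Hacd3* (0.21) and *Tecr* (-0.23) complete the elongation cycle after *Fasn* has made palmitate. *Scd2* and other genes of the lists read here are also in a gene table of the study. That table was drawn from these same arrays and is no separate reading. The study also measured genes of lipid synthesis in WAT by quantitative PCR, and those values were not compared here.

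Regulators around SREBP-1, ChREBP and the carboxylases varied gene by gene. Of 15 genes of SREBP processing and partner factors, of 16 listed, 3 were over 0.3 and 1 was under -0.3, with a median of 0.09. *Ppargc1b*, a coactivator of SREBP-1, had 342.3 in WT and 630.9 in Tg (0.88). *Insig2* (0.46), which holds SREBP in the endoplasmic reticulum, and *Nfyc* (0.42), a subunit of the factor that binds the CCAAT box, followed, whereas *Srebf2*, the gene of SREBP-2, had 0.06. *Usf1*, an E-box factor, read 151.0 in WT against 116.2 in Tg (-0.38), with kept probe sets down to -1.43. Of the 7 genes among ChREBP partners and targets that passed, of 10 listed, none was over 0.3 and 2 were under -0.3. These were *Mlxip*, the paralog of *Mlxipl*, with 638.1 in WT and 363.5 in Tg (-0.81), and *Gpd1*, glycerol 3-phosphate dehydrogenase (-0.69). The 3 kept probe sets of *Gpd1* ranged from -1.01 to -0.01. *Slc2a4*, the insulin-responsive glucose transporter, had 0.09 and -0.68 on its 2 kept probe sets, and *G6pc3* (0.11) and *Khk* (-0.02) lay near 0. Of 9 regulators of acetyl-CoA carboxylase, of 10 listed, 4 were over 0.3, none was under -0.3 and the median was 0.06. They were *Prkaa1* (0.44), *Prkab2* (0.46) and *Prkag2* (0.33), subunits of the AMP-activated kinase that phosphorylates the carboxylases, and *Mlycd* (0.45), which degrades malonyl-CoA. *Stk11*, the kinase upstream of them, had -0.01. The kept probe sets of *Prkab2* ranged from -1.12 to 0.46.

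**Figure D5:**
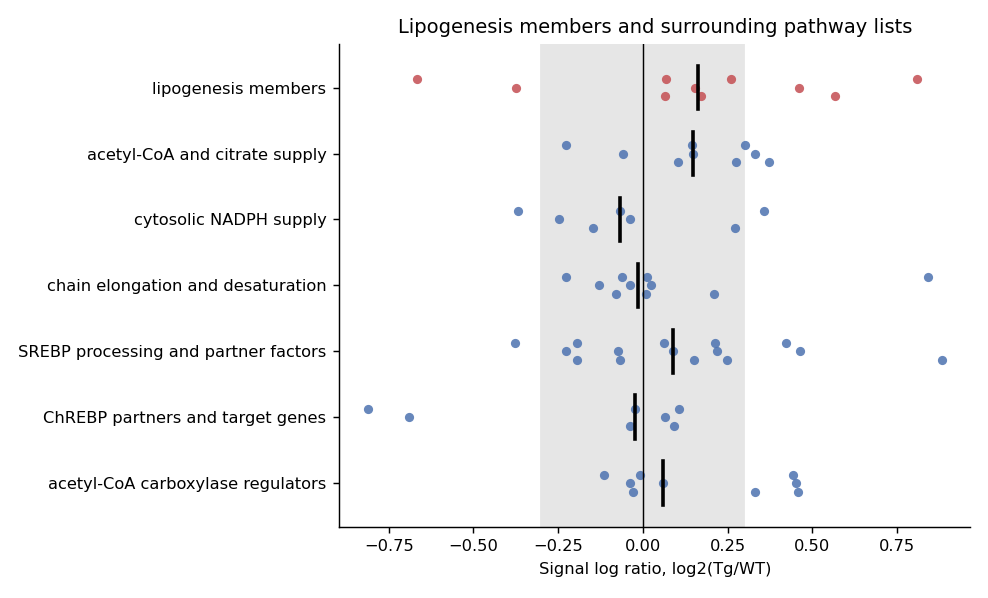
Signal log ratio, log2 (Tg/WT), of the 10 lipogenesis genes and of the genes of 6 surrounding lists that passed the filter, 1 point per gene. Vertical bars are medians, grey shading spans -0.3 to 0.3, and height within a row has no meaning. The lipogenesis genes span -0.67 to 0.81, and their median of 0.16 lies close to that of acetyl-CoA and citrate supply at 0.15.

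Cell type markers were read beside these values, since in whole tissue fewer cells of a type and less RNA per cell cannot be told apart. Of 12 markers of mature adipocytes, in which the pathway is expressed, 2 were over 0.3 and 1 was under -0.3, with a median of 0.10 and a summed signal of 266228 in WT and 279715 in Tg. Of 12 markers of brown adipocytes 10 were kept and over 0.3, but *Elovl3* and *Dio2* were kept only through the Tg array, where they were higher, which leaves 8 kept on both arrays. The 10 had a summed signal of 5274 in WT and 28796 in Tg, while *Zic1* and *Lhx8* had at most 13.8 on either array. Of 15 macrophage markers, 9 were under -0.3 and none over 0.3, with a summed signal of 89298 in WT and 65751 in Tg. The part of these cell types in the lipogenesis values was not tested. Of 8 markers of mammary and other epithelium, 6 were below the filter, the milk protein genes *Csn2*, *Csn3* and *Wap* among them. Of the 2 kept, 1 was over 0.3 and none under -0.3. Of 8 endothelial markers 1 was under -0.3 (median -0.06), of 7 kept fibroblast and preadipocyte markers 1 was over 0.3 and 1 under -0.3 (median 0.05), and 3 of 7 skeletal muscle markers were kept, *Pvalb* and *Mylpf* only through the WT array, where they were higher. The third, *Acta1*, had -0.03. Of ovary markers 2 of 8 passed the filter, 1 over 0.3 and 1 under -0.3. Of liver markers 2 of 5 passed, both over 0.3, with a median of 0.62. These were *Alb*, at 888.9 in WT and 1262 in Tg, and *Cyp2e1*, at 18170 in WT and 30241 in Tg. The liver markers *Apoa1*, *Ttr* and *Fgb* were below the filter. The 8 reference genes ranged from -0.62 to 0.33, with a median of 0.05. The labelled tissue had its defining markers, with *Adipoq* at 41052 in WT and 43803 in Tg and *Fabp4* at 51832 in WT and 53339 in Tg.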

How the data were processed

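WAT RNA of 2 genotypes was measured on 2 arrays, 1 pool of 3 mice each. For the deposited intensity values the authors used GeneChip Operating Software ver1.4, and the submitters' processing notes name MAS5. In this algorithm mismatch probes are set against perfect-match probes to give a linear signal, which leaves low signals unstable, and arrays are scaled globally. The 2% trimmed mean was 500.0 on both arrays, and the median signal was 101.1 in WT and 95.4 in Tg. Present calls were not used here. The filter at the median signal of 98.2 stands in for them.

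Log2 ratios of Tg over WT were computed with no pseudocount. Counts leave out 64 control probe sets. Of the other 45037, 34945 had 1 symbol in the platform annotation, 932 had several and 9160 were not listed there. Probe sets of several symbols or none named no gene. The genes named were the 10 lipogenesis genes, up to 4 genes of each pathway list with the values farthest from 0 and the one nearest to it. Genes of the marker lists, and *Pcx*, were named after their values were seen. No gene was named for a pattern like that of a lipogenesis gene, since 2 arrays give every gene the same or the opposite pattern. The lipogenesis genes, the lists and the alternatives were chosen with earlier results of these data known. With 1 array per genotype, there is no test, no p-value and no SD over mice, and the number of arrays limits the precision.

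Results were recomputed with median centring, with quantile normalization, with loess (span 0.3), with a pseudocount of 25.1, a floor of 56.9, no filter, a filter at 470.5, and 3 other ways to read a gene from its probe sets. A filter on both arrays was added after seeing the data. The code was run on simulated data with known shifts. The shifted probe sets carried no noise, and the deposited scaling was checked only without an offset between arrays. This run therefore checks the arithmetic and not the precision of the values. Promoter sequences are those of RefSeq in build GRCm38.p6, with the 50 bases after the start left out. Python 3.11.15, numpy 2.4.6, pandas 2.3.3, statsmodels 0.14.6 and matplotlib 3.10.9 were used.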

Additional observations from a re-analysis of the deposited data

How the results depend on the processing

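No paired analysis was possible because each genotype had 1 array. Over 11 alternatives, the median of the 10 lipogenesis genes ranged from 0.09 to 0.25, that of acetyl-CoA and citrate supply from 0.12 to 0.30 and that of carboxylase regulators from 0.03 to 0.33. Medians of the other lists changed sign, with ranges of -0.12 to 0.02 for NADPH supply, -0.06 to 0.07 for elongation and desaturation, -0.36 to 0.17 for SREBP processing and -0.72 to 0.06 for ChREBP partners and targets. With the filter on both arrays, an alternative chosen after seeing the data, 4 of 15 probe sets were over 0.3 and 3 under -0.3. Over the whole array under that filter, 3389 of 21276 probe sets were over 0.3 and 3822 under -0.3. Genes under -0.3 numbered 1 instead of 2 with median centring, with the median of each gene's probe sets, with the brightest probe set without a suffix (8 genes) and with the second-brightest probe set (4 genes). The last setting also left 1 gene over 0.3. Over all genes, 13.0% were under -0.3 with median centring. The shares over all genes were not computed for the other ways to read a gene from its probe sets. Without a filter, 6 of 20 probe sets were under -0.3, beside 13707 of 45037 over the whole array. With the stricter filter, 1 of 3 genes disagreed in sign between probe sets. The share over all genes was not computed under that filter. The lowest medians of SREBP processing (9 genes) and of ChREBP partners and targets (4 genes) were those of second-brightest probe sets. The causes were not tested. Of the probe set values, 95 moved by less than 0.41 and 5 by more, all 5 of probe sets below the filter. Signals of the 4 such probe sets lay at or under 53.1, where brightness limits any reading.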
